A study of Mus musculus with 17 samples.

Results

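Kidneys labelled as diabetic kidney disease with a control hairpin were compared with wild-type kidneys, across all expressed genes. The 10 libraries used were 6 labelled Ctr shRNA and 4 labelled control, chosen by their titles and genotypes from the 17 mouse kidney libraries of the series. The control libraries carry the abbreviation NC in their titles and WT as genotype. The Ctr shRNA libraries carry DKD and Vehicle in their titles and Ctr shRNA as genotype, so the labels leave unclear if a control hairpin was given or only the vehicle. The other 7 libraries, labelled Gcgr shRNA for a hairpin against the glucagon receptor gene in proximal tubule cells, also carry DKD and entered only the filter on low values and the estimate of the spread. How the disease was induced, the strain, the age, the sex and the route of any hairpin are not stated in the labels, and no label ties a library to its own animal. The p-values therefore measure the spread between these samples, which may be technical in part. Disease label, any diabetic treatment, any hairpin or vehicle and any difference in strain between the groups go with the same 6 libraries, so their parts in a difference cannot be told apart. Each library is called by its group and title number.

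The kidney filters plasma in the glomerulus and recovers most of the filtrate in the proximal tubule, whose first segment takes up glucose and amino acids and whose last segment is rich in organic anion transporters and detoxifying enzymes. The thick ascending limb, the distal convoluted tubule and the collecting duct then adjust salt, calcium, water and acid. In diabetes the filtered glucose load rises, and diabetic kidney disease is known for tubular stress, inflammation, changed lipid handling and, later, scarring. RNA of whole kidney mixes all these cells, and fewer cells of a type cannot be told apart from less RNA per cell.

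Recovered reads (counts rebuilt from the deposited values) per library numbered 14117414 to 16898206, and 12183 to 12919 genes reached an FPKM (fragments per kilobase of gene, scaled to library size) of 1. Kidney markers were present in all 10, with the phosphate transporter Slc34a1 of the proximal tubule at 849.9 to 1535 FPKM and uromodulin, Umod, of the thick ascending limb at 283 to 1007 FPKM. Ddx3y, from the Y chromosome, was at 8.09 to 12.1 FPKM and Xist at most at 0.0161, so the groups did not differ in the sex these transcripts mark. On the first principal component of the 10 libraries, which took 31.4% of the variance, control lay at -21.6 to -15.9 and Ctr shRNA at -1.97 to 37.6. Ctr shRNA 20 stood apart at 37.6, and at 32.3 on the second component. This library held Adipoq, a fat cell hormone, at 45.3 FPKM and Upk3a, of the urinary tract lining, at 56.8 FPKM, against at most 2.38 and 1.75 FPKM in the other 9. Aqp2, the water channel of principal cells, was at 850.0 FPKM in it and at most at 259 elsewhere. All counts were repeated without it.

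Of 13279 genes tested, 475 were higher (3.58%) and 519 lower (3.91%) in Ctr shRNA by limma at an adjusted p below 0.05, and only these are said to have risen or fallen. Without Ctr shRNA 20 the counts were 547 higher (4.12%) and 463 lower (3.49%), of which 417 and 399 also passed with all libraries. Every Ctr shRNA library lay above every control library for 625 genes (4.71%) and below for 719 (5.41%). Changes of at least 2-fold made up 84 of the higher and 50 of the lower genes. The shares of all genes, 3.58% and 3.91%, are those to set beside each count of a list below. The median log2 fold change of all tested genes was 0.0071. Fold changes are differences of mean log2(FPKM + 1), a scale that understates the change of genes near 1 FPKM. The count of higher genes was 237, 244 and 215 without control 37, 38 and 39 and 309 without Ctr shRNA 4, and that of lower genes 253, 236 and 243 without control 37, 38 and 39. In every one of the 10 fits that left out 1 library, 182 genes were higher and 191 lower.

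**Figure D1:**
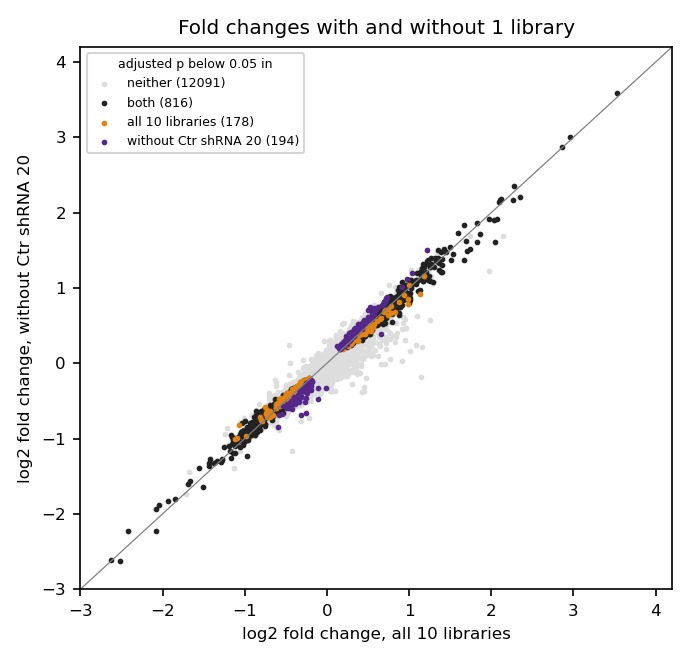
Log2 fold change of each of 13279 tested genes with all 10 libraries (x axis) against that without Ctr shRNA 20 (y axis), coloured by which fit called the gene, with the line of equality. In both fits 816 genes passed, 178 passed only with all libraries and 194 only without Ctr shRNA 20.

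Genes that the tumour suppressor p53 induces under stress were higher in the diabetic kidneys. Of the p53 target list, 18 of 28 rose and 0 fell (17 and 0 without Ctr shRNA 20), with a median log2 fold change of 0.64. That is 64.3% of its tested members higher, beside 3.58% of all genes, and in 17 of 28 members the groups did not overlap. Phlda3, which blocks the kinase Akt, was at 3.21, 4.22, 3.89 and 3.83 FPKM in control 37, 38, 39 and 41 and at 17.1 to 31.6 (median 20.9) in Ctr shRNA. Phlda3 rose by 2.27 ± 0.20 on the log2 scale (SE, adjusted p = 3.3e-06), and no Ctr shRNA library came near the control range. Eda2r, a death receptor of the tumour necrosis factor receptor family, was at 0.0838, 0.0651, 0.101 and 0.0845 FPKM in the control libraries and at 1.07 to 1.49 (median 1.32) in Ctr shRNA. Eda2r rose by 1.08 ± 0.12 on the log2 scale (SE, adjusted p = 6.6e-05), from close to 0 to above 1 FPKM in all 6 libraries. Psrc1, a spindle protein, had a like pattern, with 0.0210, 0.152, 0.176 and 0.0925 FPKM in control and 1.24 to 1.53 (median 1.43) in Ctr shRNA, and rose by 1.11 ± 0.13 (adjusted p = 0.00012).

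The cell cycle inhibitor Cdkn1a and the stress hormone Gdf15 were the members with the largest changes beside Phlda3, at 2.86 and 2.11 on the log2 scale. Gdf15 was at 5.49, 6.08, 4.84 and 5.24 FPKM in control and at 19.4 to 55.9 (median 21.2) in Ctr shRNA, with Ctr shRNA 4 highest. Mdm2, the ligase that degrades p53, was at 10.6, 10.9, 10.9 and 10.3 FPKM in control and at 12.6 to 17.96 (median 14.8) in Ctr shRNA. Mdm2 rose by 0.47 ± 0.10 on the log2 scale (SE, adjusted p = 0.007), a smaller change than those of Phlda3 and Gdf15, again without overlap of the groups. Plk2, a stress-induced kinase, rose by 1.03 ± 0.14 (adjusted p = 0.00032). Beside Eda2r, the cell death genes Bax, Bbc3, Pmaip1 and Tnfrsf10b of the p53 list rose, and Fas did not pass. This grouping was made after their values were seen, and 64.3% of the whole list rose. Of 16 cell cycle genes tested, 0 rose and 0 fell by limma (1 and 0 without Ctr shRNA 20), with 4 above and 0 below at an unadjusted p under 0.05 and 1 higher by voom, a count-based fit of the recovered reads. The fold change was above 0 for 13 of the 16, beside 51.5% of all tested genes, and the median was 0.12. Ccnd1, of the same list, had a log2 fold change of 0.63 and did not pass (adjusted p = 0.11). The proliferation marker Mki67 was at 0.140 to 0.37 FPKM in control and at 0.270 to 0.733 in Ctr shRNA, too low to be tested.

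The type I interferon programme moved in nearly all its listed members. Of interferon-stimulated genes, 26 of 31 rose and 0 fell (26 and 0 without Ctr shRNA 20), and the median was 0.90, or 0.83 without Ctr shRNA 20. Bst2, which tethers budding viruses, was at 8.83, 11.8, 12.7 and 14.5 FPKM in control and at 31.4 to 82.5 (median 48.7) in Ctr shRNA. Bst2 rose by 2.03 ± 0.24 on the log2 scale (SE, adjusted p = 0.00014), with the groups apart. Ifit1, which binds foreign RNA, was at 0.876, 0.746, 1.24 and 1.08 FPKM in control and at 3.05 to 13.9 (median 4.67) in Ctr shRNA, and rose by 1.83 ± 0.31 (adjusted p = 0.0018). Irf7, the transcription factor that amplifies interferon production, was at 2.896, 2.896, 2.62 and 2.87 FPKM in control and at 7.59 to 22.2 (median 12.5) in Ctr shRNA. Irf7 rose by 1.87 ± 0.23 on the log2 scale (SE, adjusted p = 0.0002). For these 3 genes Ctr shRNA 20 was the highest library and Ctr shRNA 19 the lowest, and both lay above control. Lgals3bp, a secreted glycoprotein, and Ifi27, a mitochondrial interferon-induced protein, rose by 2.35 ± 0.23 and 2.07 ± 0.24 (adjusted p = 1.2e-05 and 0.00012). The summed picture differed between libraries, with the mean of the list above the control mean by 0.59 in Ctr shRNA 19, by 1.33 in Ctr shRNA 4 and by 1.79 in Ctr shRNA 20.

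Interferon-stimulated genes are known to carry an element that the interferon factors bind. The motif GAAANNGAAA was searched on both strands of RefSeq promoters (GRCm38.p6, 250 bases before to 50 after each start). It was found in 10 of the 21 tested interferon-stimulated genes that have an entry (47.6%), in 4 of 15 class I presentation genes (26.7%), and in 3.99% of all 27025 gene symbols of the promoter table. Stretches of 60 bases before the start are shown for 6 interferon-stimulated genes and B2m, all genes that rose, to let the copies and their spacing be compared. Capitals mark the motif on either strand, and the strand printed is that of the gene.
Bst2: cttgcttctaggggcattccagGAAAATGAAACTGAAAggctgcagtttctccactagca
Ifit1: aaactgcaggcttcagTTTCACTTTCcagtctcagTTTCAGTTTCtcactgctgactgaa
Oas1a: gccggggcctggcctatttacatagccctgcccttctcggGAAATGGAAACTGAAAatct
Trim30a: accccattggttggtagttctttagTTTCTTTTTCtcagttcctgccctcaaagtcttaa
Isg15: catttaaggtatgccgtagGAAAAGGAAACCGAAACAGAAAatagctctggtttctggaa
Ifit3: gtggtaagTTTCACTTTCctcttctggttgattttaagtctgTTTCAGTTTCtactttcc
B2m: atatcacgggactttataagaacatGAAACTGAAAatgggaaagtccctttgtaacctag

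These stretches lie at chr8:71537565-71537624 (Bst2, minus strand), chr19:34640769-34640828 (Ifit1, plus strand), chr5:120907526-120907585 (Oas1a, minus strand), chr7:104465195-104465254 (Trim30a, minus strand), chr4:156200856-156200915 (Isg15, minus strand), chr19:34583365-34583424 (Ifit3, plus strand), chr2:122147523-122147582 (B2m, plus strand). In Isg15, a ubiquitin-like modifier, 3 overlapping copies formed 1 run that began 78 bases before the start, and in Bst2 and in Oas1a, which senses double-stranded RNA, 2 copies overlapped. The 2 copies of Ifit1 and of Ifit3 stood apart on the reverse strand, and Trim30a and B2m had 1 copy each. A match is a description of these letters and shows no binding in these kidneys.

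Interferon-inducible GTPases, which attack the vacuoles of intracellular microbes and respond mostly to interferon gamma, had a median log2 fold change of 0.84, and 6 of 11 rose and 0 fell (5 and 0 without Ctr shRNA 20, 3 higher without control 39, 10 higher without Ctr shRNA 19). Irgm1, a regulator of these GTPases, was at 5.56, 5.78, 4.98 and 4.68 FPKM in control and at 7.98 to 17.1 (median 10.2) in Ctr shRNA. Irgm1 rose by 0.97 ± 0.17 on the log2 scale (SE, adjusted p = 0.0025), and Gbp3, a guanylate-binding protein, by 0.85 ± 0.17 (adjusted p = 0.0065). Of class I presentation genes, 9 of 16 rose and 0 fell (9 and 0 without Ctr shRNA 20), with a median of 0.59. B2m, the shared light chain of class I molecules, was at 170.3, 175, 154 and 185 FPKM in control and at 312 to 576 (median 459) in Ctr shRNA. B2m rose by 1.36 ± 0.16 on the log2 scale (SE, adjusted p = 0.00012), and the groups were separate. Tap1, of the peptide pump, and Psme1, of the immunoproteasome activator, rose by 0.85 ± 0.17 and 0.45 ± 0.10 (adjusted p = 0.0056 and 0.0088). Of class II presentation genes, 6 of 8 rose and 0 fell (5 and 0 without Ctr shRNA 20, 2 higher without control 37 or 39 or Ctr shRNA 4), with a median of 0.77. Their spread was wide, with the list mean above the control mean by 0.20 in Ctr shRNA 19 and by 1.30 in Ctr shRNA 6. H2-DMb1, which loads peptides, was at 6.98, 6.03, 7.05 and 5.53 FPKM in control and at 8.08 to 19.3 (median 13.4) in Ctr shRNA, and the protease Ctss rose by 0.96 ± 0.18 (adjusted p = 0.0043). Class II genes mark macrophages, dendritic and B cells, and of these cells' own markers 2 of 13 rose and 1 fell for macrophages, while 0 of 1 dendritic cell and 0 of 3 B and plasma cell markers passed limma's test (log2 fold changes of 0.11, and 0.28 to 1.27). At an unadjusted p under 0.05, 1 B and plasma cell marker was higher, and voom called 0 of either kind. The part of these cells in the class II rise was not tested.

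Of complement genes, 2 of 13 rose and 1 fell (2 and 1 without Ctr shRNA 20), or 15.4% and 7.69% beside 3.58% and 3.91% of all genes. C3, at 3.52, had the largest rise among the genes ranked for naming. C4b, of the classical pathway, was at 1.62, 1.56, 1.62 and 1.11 FPKM in control and at 2.56 to 8.899 (median 3.53) in Ctr shRNA and rose by 1.00 ± 0.23 (adjusted p = 0.015). Cfb, of the alternative pathway, which acts together with C3, fell by 0.68 ± 0.15 (adjusted p = 0.013) and overlapped between the groups. Cfb did not pass when control 38 or 39 was left out (adjusted p as high as 0.062). The other 10 complement genes tested did not pass. Among chemokines and cytokines, 6 of 13 rose and 0 fell (5 and 0 without Ctr shRNA 20, 2 higher without control 37, 38 or 39 or Ctr shRNA 4). Cxcl10, which draws activated T cells, changed by 2.09, and Cxcl16, which draws T and natural killer T cells, was at 9.27, 8.09, 9.13 and 10.7 FPKM in control and at 13.5 to 23.3 (median 17.6) in Ctr shRNA. Cxcl16 rose by 0.85 ± 0.13 on the log2 scale (SE, adjusted p = 0.0011). Ccl2, which draws monocytes, reached 4.55 FPKM in Ctr shRNA 4 but was at 1.204 at the median, and did not pass (adjusted p = 0.081).

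Among NF-kB genes, 5 of 14 rose and 0 fell (3 and 0 without Ctr shRNA 20, 2 higher without control 37, 3 higher without control 38 or 39 or Ctr shRNA 4 or 6). The adhesion molecule Icam1 was at 4.24, 4.25, 3.28 and 4.97 FPKM in control and at 7.57 to 13.1 (median 9.01) in Ctr shRNA. Icam1 rose by 1.00 ± 0.14 on the log2 scale (SE, adjusted p = 0.00059). Of the subunits, Nfkb2 of the non-canonical branch rose by 0.61 ± 0.14 (adjusted p = 0.014), whereas Nfkb1 of the canonical branch had a log2 fold change of 0.13 and did not pass (adjusted p = 0.47). Nfkb2 did not pass when control 37 was left out (adjusted p as high as 0.052). The inhibitor Nfkbia, an early target of the pathway, also did not pass (0.17, adjusted p = 0.49). Of immediate early genes, 6 of 15 rose and 0 fell (5 and 0 without Ctr shRNA 20, 3 higher without control 37 or 39). Myc, a growth regulator, was at 2.73, 2.26, 2.01 and 2.84 FPKM in control and at 4.18 to 10.3 (median 5.59) in Ctr shRNA. Myc rose by 1.00 ± 0.21 on the log2 scale (SE, adjusted p = 0.0075), and the transcription factor Klf6 by 0.84 ± 0.18 (adjusted p = 0.0089). Fos and Egr1, which react to handling within minutes, did not pass and had log2 fold changes of 0.71 and 0.59. Egr1 was highest in Ctr shRNA 4, at 5.79 FPKM, and 1.16 FPKM in Ctr shRNA 20.

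**Figure D2:**
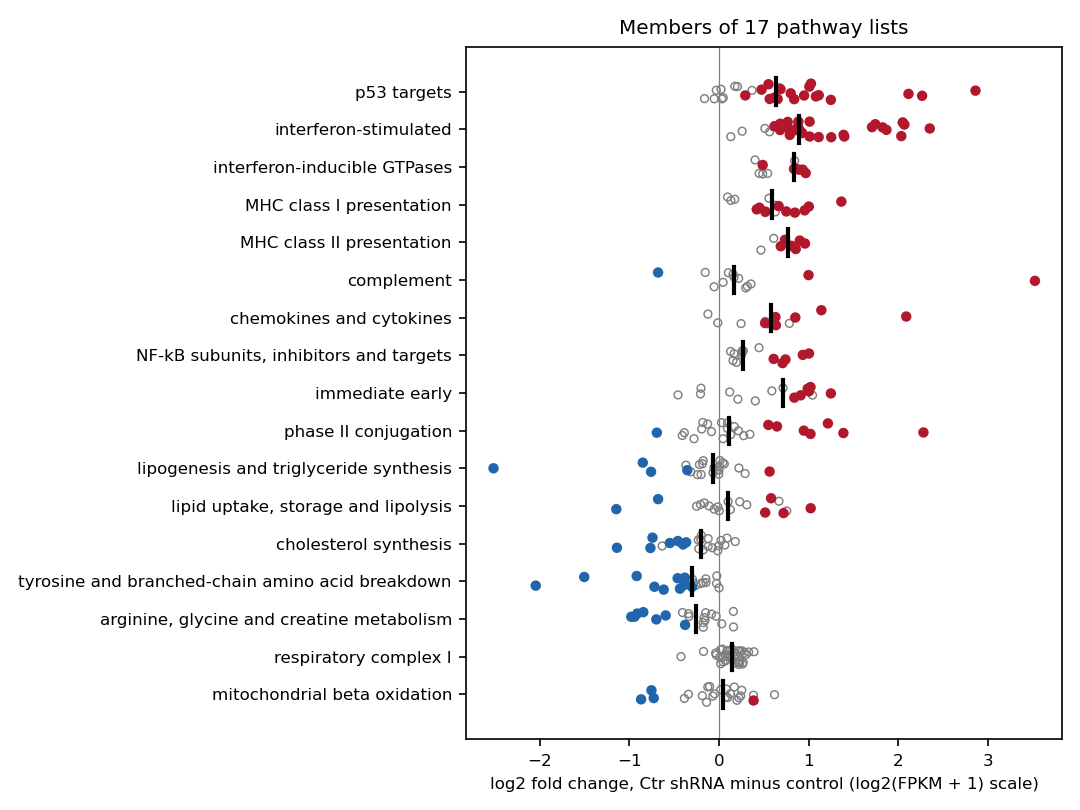
Log2 fold change (Ctr shRNA minus control, log2(FPKM + 1) scale) of each tested member of 17 lists, filled where limma's adjusted p was below 0.05 (red higher, blue lower), with a black bar at the list median. Members of the p53 and interferon-stimulated lists lie mostly to the right (medians 0.64 and 0.90), those of tyrosine and branched-chain amino acid breakdown to the left (median -0.30), and complex I genes near 0 (median 0.14).

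Other stress responses had smaller shares of members higher than the 64.3% of the p53 list. For unfolded protein and integrated stress, NRF2 and hypoxia genes the shares were 9.52%, 12.5% and 15.8%, beside 3.58% of all genes. In the first of these lists the fold change was above 0 for 15 of 21, with a median of 0.44. Of unfolded protein and integrated stress response genes, 2 of 21 rose and 0 fell (2 and 0 without Ctr shRNA 20, 1 higher without control 37, 38 or 39, 5 higher without Ctr shRNA 1), and the chaperone Hspa5 was at 74.2, 92.7, 73.1 and 78.3 FPKM in control and at 86.8 to 231 (median 129) in Ctr shRNA without passing (adjusted p = 0.1). Asns, the asparagine synthetase that Atf4 induces, rose by 0.57 ± 0.12 (adjusted p = 0.0089), while Atf4 itself had a log2 fold change of -0.05. Of targets of the antioxidant factor NRF2, 2 of 16 rose and 0 fell (2 and 0 without Ctr shRNA 20, 1 higher without control 37 or 38), and the standard target Nqo1 did not pass (-0.04, adjusted p = 0.95). Ephx1, the microsomal epoxide hydrolase, was the exception in size, at 15.3, 16.4, 18.6 and 18.5 FPKM in control and 58.1 to 87.3 (median 69.1) in Ctr shRNA. Ephx1 rose by 1.97 ± 0.14 on the log2 scale (SE, adjusted p = 1.7e-07), with the groups well apart. Of 14 genes that remove peroxide and superoxide 0 passed by limma (1 higher and 1 lower at an unadjusted p under 0.05, 1 higher by voom), or 2 rose without Ctr shRNA 20. Of hypoxia response genes, 3 of 19 rose and 1 fell (3 and 1 without Ctr shRNA 20, 0 higher without control 38, 1 higher without control 39 or Ctr shRNA 4). P4ha2, Egln3 and Adm rose by 0.57 ± 0.14, 0.61 ± 0.16 and 0.74 ± 0.19 (adjusted p = 0.021, 0.025 and 0.026). They passed in 8, 7 and 5 of the 10 fits that left out 1 library. Car9, a carbonic anhydrase known as a marker of hypoxia, fell by 1.67 ± 0.25 (adjusted p = 0.00072), from 9.12, 9.38, 10.7 and 6.996 FPKM in control to 1.13 to 3.07 (median 2.42) in Ctr shRNA, while Vegfa was level at -0.05.

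Tubular injury and scarring genes were less uniform. Of tubular injury genes, 3 of 22 rose and 1 fell (2 and 0 without Ctr shRNA 20, 1 higher without control 39). The fold change was above 0 for 20 of the 22, or 18 without Ctr shRNA 20, beside 51.5% of all tested genes. The list median was 0.41, or 0.28 without that library, whose list mean lay 1.21 above the control mean where the other 5 lay 0.09 to 0.60 above it. Havcr1, or kidney injury molecule 1, was at 7.82, 0.802, 2.28 and 2.13 FPKM in control and at 4.83 to 32.3 (median 11.5) in Ctr shRNA, with a wide spread in both groups, and did not pass (1.74, adjusted p = 0.087). Lcn2, the other common injury marker, ranged from 0.838 to 56.6 FPKM in Ctr shRNA, highest in Ctr shRNA 20, and did not pass (2.15, adjusted p = 0.069). Spp1, or osteopontin, was at 393, 289, 340.4 and 404 FPKM in control and at 445 to 1217 (median 938) in Ctr shRNA and rose by 1.19 ± 0.33 (adjusted p = 0.04). Spp1 did not pass when control 37, 38, 39 or 41 or Ctr shRNA 1, 4, 8 or 20 was left out (adjusted p as high as 0.12). Sox9, of repairing tubule cells, rose by 0.66 ± 0.16 (adjusted p = 0.017) from low levels. Sox9 did not pass when control 39 was left out (adjusted p as high as 0.073). Of 25 extracellular matrix genes 0 rose and 2 fell with and without Ctr shRNA 20 (0 lower without control 38, 39 or 41 or Ctr shRNA 6, 1 lower without control 37 or Ctr shRNA 1, 4 or 8). Col1a1 and Fn1, collagen I and fibronectin, had log2 fold changes of -0.04 and 0.26 with overlapping groups. Col4a4, a chain of the glomerular basement membrane, fell by 0.53 ± 0.15 (adjusted p = 0.044), and by 0.66 without Ctr shRNA 20 (adjusted p = 0.0027). Col4a4 did not pass when control 37, 38, 39 or 41 or Ctr shRNA 1, 4, 6 or 8 was left out (adjusted p as high as 0.12).

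Along the proximal tubule, the list median was lowest for markers of the last segment, S3. Of 7 S3 markers tested, 3 fell and 0 rose (the same counts without Ctr shRNA 20), with a median of -0.92, or -0.79 without that library. Slc22a7, an organic anion transporter, was at 121, 110.3, 97.6 and 121 FPKM in control and at 15.1 to 35.9 (median 27.4) in Ctr shRNA. Slc22a7 fell by 2.08 ± 0.28 on the log2 scale (SE, adjusted p = 0.00041), and the highest Ctr shRNA library lay below the lowest control. Slc7a13, a cystine and aspartate transporter, was at 394, 492, 392 and 478 FPKM in control and at 117 to 347 (median 196) in Ctr shRNA. Slc7a13 fell by 1.16 ± 0.28 on the log2 scale (SE, adjusted p = 0.019). Slc7a13 did not pass when control 38 was left out (adjusted p as high as 0.067). Slc22a19, another organic anion transporter, fell by 0.91 ± 0.16 (adjusted p = 0.0028). The S3 mean lay below the control mean in every Ctr shRNA library, by a difference of -0.38 in Ctr shRNA 19 and -1.73 in Ctr shRNA 20. Several S3 markers are also known to depend on sex hormones. Of 13 genes with known male-biased expression in mouse kidney, 4 fell and 0 rose (3 and 0 without Ctr shRNA 20, 1 lower without control 38, 2 lower without control 37 or 39 or Ctr shRNA 1), and Kap, the kidney androgen-regulated protein, did not pass (-0.58, adjusted p = 0.19). Of 6 genes known for female-biased expression there, 2 fell, Slc22a7 and Slc22a19, and 1 rose, Cyp4a14 by 2.96 ± 0.47 (adjusted p = 0.0011), with the same counts without Ctr shRNA 20. The part of hormones in these changes was not tested.

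The medians of the earlier segments were -0.66 for S1 and -0.31 for S2, or -0.69 and -0.26 without Ctr shRNA 20, so that S1 and S3 were then close. Of 4 S2 markers 2 fell (1 without Ctr shRNA 20, 1 lower without control 37, 38 or 39 or Ctr shRNA 1, 6, 8 or 19), and Cyp2e1, an alcohol-metabolising cytochrome, fell by 1.12 ± 0.17 (adjusted p = 0.0011), from 928, 1041, 1011 and 906 FPKM in control to 328 to 552 (median 468) in Ctr shRNA. The S2 organic anion transporter Slc22a6, the main one for drugs, was level (0.03, adjusted p = 0.91). Of 7 S1 markers 2 fell and 1 rose (0 and 1 without Ctr shRNA 20, 0 lower without control 37, 38 or 39 or Ctr shRNA 4, 6, 8 or 19, 4 lower without control 41). Slc5a2, the glucose transporter SGLT2 that is the target of gliflozin drugs, was at 91.4, 95.5, 98.95 and 50.3 FPKM in control and at 37.3 to 64.4 (median 52.1) in Ctr shRNA. The value of control 41, 50.3 FPKM, lay within the Ctr shRNA range, and the fall of 0.66 ± 0.19 was near the threshold (adjusted p = 0.048). Slc5a2 did not pass when control 37, 38 or 39 or Ctr shRNA 4, 6, 8, 19 or 20 was left out (adjusted p as high as 0.16). Of 18 markers shared by all proximal segments 5 fell and 0 rose with and without Ctr shRNA 20 (3 lower without control 37, 38 or 39 or Ctr shRNA 4 or 6), and the median was -0.30. Miox, which starts inositol breakdown, was at 1022, 1103, 1213 and 864 FPKM in control and at 486 to 719 (median 615) in Ctr shRNA and fell by 0.79 ± 0.12 (adjusted p = 0.001). Of the receptors of protein endocytosis, cubilin, Cubn, fell by 0.44 ± 0.12 (adjusted p = 0.033) and megalin, Lrp2, was at -0.36 without passing (adjusted p = 0.069). Cubn did not pass when control 37, 38 or 39 or Ctr shRNA 1, 4 or 6 was left out (adjusted p as high as 0.12).

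**Figure D3:**
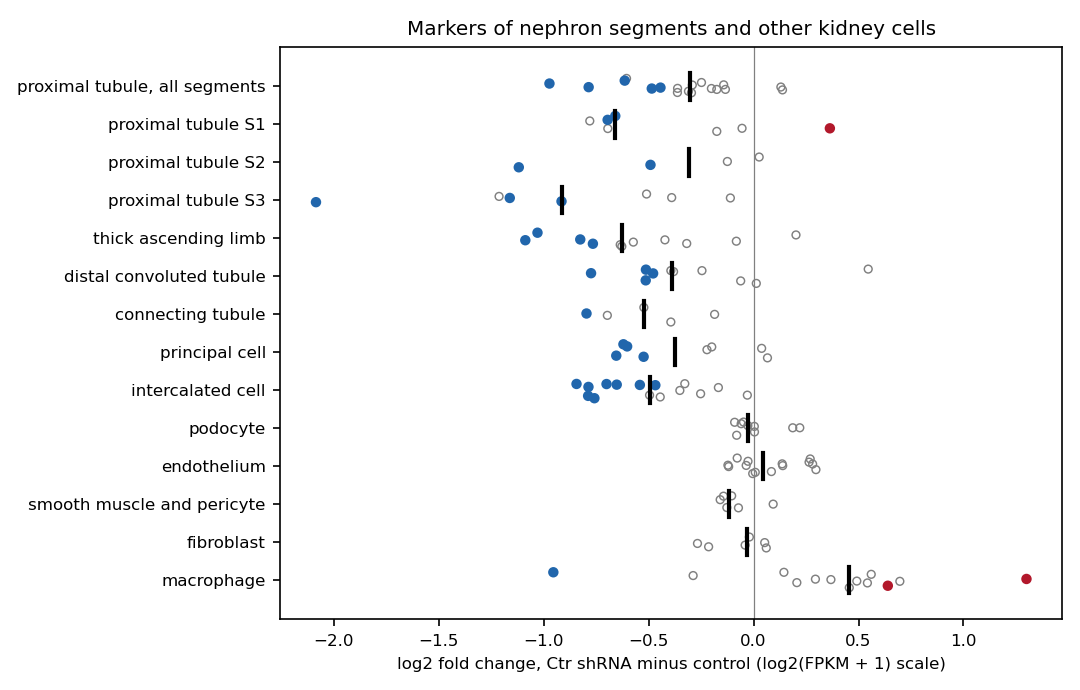
Log2 fold change (Ctr shRNA minus control, log2(FPKM + 1) scale) of each tested marker of 14 nephron segments and other kidney cells, filled where limma's adjusted p was below 0.05, with a black bar at the list median. Median values run from -0.92 for S3 to 0.46 for macrophages, and podocyte and endothelial markers lie around -0.03 and 0.05 with 0 filled points.

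In the thick ascending limb, 0 of 11 rose and 4 fell (0 and 4 without Ctr shRNA 20, 1 lower without control 39, 2 lower without control 37, 38 or 41 or Ctr shRNA 4 or 6), with a median of -0.63, or -0.42 without that library. Egf, epidermal growth factor, was at 79.7, 101, 97.3 and 95.1 FPKM in control and at 30.03 to 70.01 (median 40.6) in Ctr shRNA. Egf fell by 1.09 ± 0.20 on the log2 scale (SE, adjusted p = 0.0032), with no overlap, and Ctr shRNA 19 was nearest to control. Slc12a1, the salt transporter that loop diuretics block, was at 130.3, 124, 174 and 188 FPKM in control and at 31.9 to 132 (median 79.3) in Ctr shRNA and overlapped. Slc12a1 fell by 1.03 ± 0.29 on the log2 scale (SE, adjusted p = 0.042), a value that moved to -0.79 without Ctr shRNA 20. Slc12a1 did not pass when control 37, 38, 39 or 41 or Ctr shRNA 4 or 6 was left out (adjusted p as high as 0.12). Casr, the calcium-sensing receptor, fell by 0.83 ± 0.19 (adjusted p = 0.014). Casr did not pass when control 39 was left out (adjusted p as high as 0.06).

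Further along, 4 of 10 distal convoluted tubule markers fell (2 without Ctr shRNA 20, 2 lower without control 37, 38 or 39 or Ctr shRNA 4). Slc12a3, the thiazide-sensitive salt transporter, was at 116, 136, 125 and 90.9 FPKM in control and at 59.1 to 81.8 (median 66.2) in Ctr shRNA. Slc12a3 fell by 0.77 ± 0.14 on the log2 scale (SE, adjusted p = 0.0029), and its activating kinase Wnk4 by 0.51 ± 0.09 (adjusted p = 0.003). Pvalb, of the early part of that segment, did not move with them, at 0.55 with overlapping groups. In the connecting tubule 1 of 5 markers fell and 0 rose, with and without Ctr shRNA 20, and the median was -0.52. With 1 library left out, 0 to 1 of them fell. Its markers Trpv5 and S100g did not pass (-0.19 and -0.52, adjusted p = 0.48 and 0.3). Klk1, tissue kallikrein of the connecting tubule, was at 1719, 1990, 1756 and 1635 FPKM in control and at 771 to 1504 (median 969.7) in Ctr shRNA and fell by 0.80 ± 0.18 (adjusted p = 0.013). Klk1 did not pass when control 38 was left out (adjusted p as high as 0.052). Of principal cell markers, 0 of 8 rose and 4 fell (0 and 4 without Ctr shRNA 20, 2 lower without control 39). Scnn1b, a subunit of the aldosterone-regulated sodium channel, was at 21.4, 19.6, 19.8 and 19.8 FPKM in control and at 11.1 to 13.8 (median 12.4) in Ctr shRNA. Scnn1b fell by 0.65 ± 0.09 on the log2 scale (SE, adjusted p = 0.00044), in all 6 libraries alike, and Scnn1g fell by 0.60 ± 0.10 (adjusted p = 0.0016). Aqp2 differed from these, at 0.04 with all libraries and -0.37 without Ctr shRNA 20, and did not pass in either.

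Intercalated cells, which move acid and bicarbonate, had the largest share of markers lower among the segments with 10 or more tested, and 0 of 15 rose and 8 fell (0 and 7 without Ctr shRNA 20). Atp6v1b1, a subunit of their proton pump, was at 23.1, 26.2, 27.1 and 22.5 FPKM in control and at 10.5 to 19.1 (median 14.2) in Ctr shRNA. Atp6v1b1 fell by 0.79 ± 0.13 on the log2 scale (SE, adjusted p = 0.0016), with the groups apart. The lower genes came from both cell kinds, as Slc4a1, the bicarbonate exchanger of the acid-secreting type, fell by 0.65 ± 0.15 and Slc26a4, or pendrin, of the base-secreting type, by 0.79 ± 0.15 (adjusted p = 0.011 and 0.0052). Rhcg, an ammonia channel, fell by 0.76 ± 0.15 (adjusted p = 0.0052), and Insrr, a receptor that senses alkali, by 0.84 ± 0.13 (adjusted p = 0.0012).

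Outside the tubule 0 of 9 podocyte, 0 of 14 endothelial, 0 of 6 smooth muscle and pericyte and 0 of 6 fibroblast markers passed limma's test. At an unadjusted p under 0.05, 1 podocyte marker was higher and 0 of the other 3 kinds differed, and voom called 0 in each. The endothelial mean was above the control mean by 0.55 in Ctr shRNA 6 and by 0.57 in Ctr shRNA 20, and at -0.35 and -0.41 in Ctr shRNA 4 and 19, so the 6 libraries differed among themselves in these markers. Of macrophage markers, 2 of 13 rose and 1 fell (2 and 1 without Ctr shRNA 20, 1 higher without control 37, 38 or 39 or Ctr shRNA 6, 5 higher without Ctr shRNA 19). That is 15.4% and 7.69%, beside 3.58% and 3.91% of all genes. The fold change was above 0 for 11 of the 13, with and without Ctr shRNA 20, and the median was 0.46. The lysozyme gene Lyz2 was at 12.6, 10.2, 14.9 and 17.5 FPKM in control and at 17.6 to 47.4 (median 38.5) in Ctr shRNA. Lyz2 rose by 1.30 ± 0.23 on the log2 scale (SE, adjusted p = 0.0025), while Csf1r, the receptor on which macrophages depend, fell by 0.95 ± 0.15 (adjusted p = 0.001). Csf1r went from 16.4, 15.4, 14.02 and 16.2 FPKM in control to 5.49 to 10.2 (median 7.59) in Ctr shRNA, so these 2 markers of 1 cell type moved in opposite ways. Adgre1, or F4/80, did not pass (0.37, adjusted p = 0.24). The T cell genes Cd3e and Cd8a stayed at or below 0.850 FPKM and were highest in Ctr shRNA 6, and Ccl5, a chemokine of T cells and activated epithelium, rose by 1.16 ± 0.26 (adjusted p = 0.011).

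**Figure D4:**
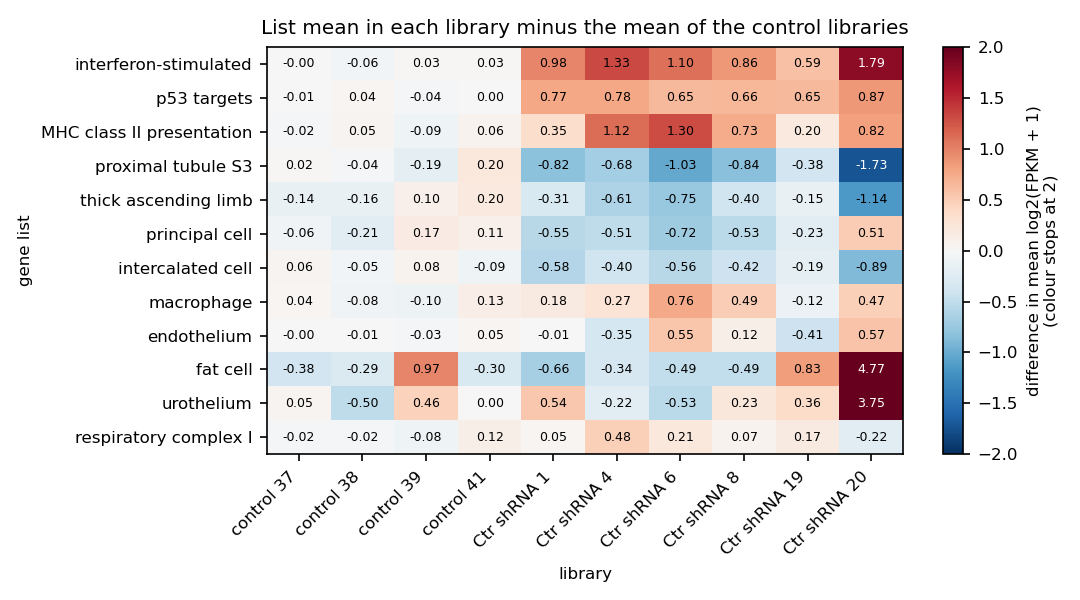
Mean log2(FPKM + 1) of the tested members of 12 lists in each of the 10 libraries, minus the mean of the 4 control libraries; red is higher and blue lower, and the colour stops at 2. Fat cell and urothelium markers stand at 4.77 and 3.75 in Ctr shRNA 20, while the interferon and p53 lists are above control in all 6 Ctr shRNA libraries.

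Of sugar transporters, 2 of 13 rose and 3 fell (4 and 2 without Ctr shRNA 20, 1 higher without control 37, 38, 39 or 41 or Ctr shRNA 4, 6, 8 or 19, 1 lower without control 38 or 39). Slc5a10, a sodium-coupled transporter of mannose and fructose, was at 106, 81.1, 100 and 122 FPKM in control and at 146 to 284 (median 253) in Ctr shRNA. Slc5a10 rose by 1.22 ± 0.18 on the log2 scale (SE, adjusted p = 0.00076), and 5 of 6 libraries lay above 250 FPKM. Slc2a2, the basolateral glucose exit GLUT2, was at 28.5, 30.2, 28.7 and 24.7 FPKM in control and at 29.97 to 41.7 (median 36.6) in Ctr shRNA and rose by 0.36 ± 0.11 (adjusted p = 0.044), opposite to Slc5a2 of the luminal side. Slc2a2 did not pass when control 37, 38, 39 or 41 or Ctr shRNA 1, 4, 6, 8 or 19 was left out (adjusted p as high as 0.12). Slc2a4, the insulin-responsive GLUT4, fell by 0.55 ± 0.11 (adjusted p = 0.0068), and the urate transporter Slc2a9 by 0.65 ± 0.16 (adjusted p = 0.02). Slc2a9 did not pass when control 38 or 39 was left out (adjusted p as high as 0.077). Of 8 gluconeogenesis genes 0 passed by limma (2 higher and 1 lower at an unadjusted p under 0.05, 1 higher by voom), or 1 rose without Ctr shRNA 20, and Pck1, its key enzyme, was at 1611, 1523, 1028 and 1850 FPKM in control and at 1285 to 2721 (median 2390) in Ctr shRNA (0.52, adjusted p = 0.24). Of 15 glycolysis genes only Eno1, an enolase, rose, by 0.59 ± 0.11 (adjusted p = 0.0029), or 3 genes without Ctr shRNA 20.

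Fold changes of respiratory chain genes were small. By limma 0 of 37 complex I genes, 0 of 19 of complexes III and IV, 0 of 15 of ATP synthase, 0 of 13 mitochondrially encoded genes and 0 of 20 citric acid cycle genes passed, or 1 of complexes III and IV without Ctr shRNA 20. At an unadjusted p under 0.05, 2 complex I genes and 1 of complexes III and IV were higher, 1 citric acid cycle gene was higher and 1 lower, and 0 of the other lists differed. By voom 1 gene of complex I and 1 of complexes III and IV were higher and 1 of the citric acid cycle lower. The fold change was above 0 for 33 of 37 complex I genes, 18 of 19 of complexes III and IV and 13 of 15 of ATP synthase. Without Ctr shRNA 20 these were 35, 19 and 14, beside 51.5% of all tested genes with all libraries. The medians were 0.14, 0.19 and 0.12, or 0.205, 0.259 and 0.193 without that library. Of the 13 mitochondrially encoded genes 4 were above 0, or 8 without that library. Ndufs1, a core subunit, was at 28.1, 30.9, 28.7 and 28.4 FPKM in control and at 23.8 to 34.6 (median 30.7) in Ctr shRNA. Ctr shRNA 20 was the lowest library, and its complex I mean was at -0.22 against the control mean, where the other 5 were at 0.05 to 0.48.

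Lipid genes moved in both directions, also within single lists. Of ketone body and PPAR alpha genes, 2 of 11 rose and 3 fell (2 and 3 without Ctr shRNA 20, 1 higher without control 37, 38 or 39 or Ctr shRNA 1, 4 or 8, 1 lower without control 37, 38, 39 or 41 or Ctr shRNA 1, 4, 6 or 8). Oxct1, the committing step of ketone body use, went from 354, 366, 319.8 and 359 FPKM in control to 146 to 302 (median 206) in Ctr shRNA. Oxct1 fell by 0.75 ± 0.15 on the log2 scale (SE, adjusted p = 0.0075), while Slc16a1, which carries lactate and ketone bodies, rose by 1.17 ± 0.18 (adjusted p = 0.0012). Ppara, the factor itself, did not pass (-0.23, adjusted p = 0.61). Its known targets Cyp4a14 and Cyp4a10, fatty acid omega-hydroxylases, rose by 2.96 ± 0.47 and 0.76 ± 0.22 (adjusted p = 0.0011 and 0.044), and Cyp4a14 was at 40.6, 24.9, 47.6 and 60.7 FPKM in control and at 206 to 632 (median 282) in Ctr shRNA. Cyp4a10 did not pass when control 37, 38 or 39 or Ctr shRNA 1, 4, 8 or 19 was left out (adjusted p as high as 0.15).

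Within mitochondrial beta oxidation the 3 genes that fell, Acsm1, Acsm3 and Acsm5, all belong to the medium-chain acyl-CoA synthetases, and Decr1 rose (1 lower without control 39). Decr1 did not pass when control 37, 38 or 39 or Ctr shRNA 1, 4, 6, 8 or 19 was left out (adjusted p as high as 0.15). Acsm3 did not pass when control 37, 38, 39 or 41 or Ctr shRNA 1 or 4 was left out (adjusted p as high as 0.1). Acsm5 did not pass when control 39 was left out (adjusted p as high as 0.053). Acsm1 was at 69.4, 78.5, 74.3 and 81.6 FPKM in control and at 34.2 to 50.5 (median 42.05) in Ctr shRNA and fell by 0.87 ± 0.13 (adjusted p = 0.00068). Acadm, a dehydrogenase of the spiral itself, was at -0.13 and Cpt1a, the entry step, at -0.34, and neither passed. In peroxisomes 2 of 19 genes fell and 0 rose (1 and 2 without Ctr shRNA 20, 0 lower without control 37, 38, 39 or 41 or Ctr shRNA 6, 1 lower without Ctr shRNA 1 or 4). Of 23 lipogenesis and triglyceride synthesis genes 1 rose and 4 fell (2 and 6 without Ctr shRNA 20), with a median of -0.07. The shares were 4.35% and 17.4%, beside 3.58% and 3.91% of all genes. Scd1, Fads2 and Fads1, desaturases picked out with their values known, were at -2.52, -0.85 and -0.76. Fasn, the fatty acid synthase, did not pass (-0.20, adjusted p = 0.2). Fads1 was at 26.8, 22.3, 24.01 and 23 FPKM in control and at 10.6 to 17.5 (median 13.8) in Ctr shRNA, with no overlap. Elovl2, an elongase, rose by 0.56 ± 0.16 (adjusted p = 0.043). Elovl2 did not pass when control 37, 38, 39 or 41 or Ctr shRNA 1, 4, 6 or 8 was left out (adjusted p as high as 0.12).

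Among genes for lipid uptake, lipid storage and lipolysis, 4 of 19 rose and 2 fell (4 and 2 without Ctr shRNA 20, 2 higher without control 38 or 39). Plin2, the main coat protein of lipid droplets, was at 38.8, 38.7, 31.5 and 49.8 FPKM in control and at 63.1 to 144 (median 66.7) in Ctr shRNA. Plin2 rose by 1.02 ± 0.30 on the log2 scale (SE, adjusted p = 0.045). Plin2 did not pass when control 37, 38, 39 or 41 or Ctr shRNA 1, 4 or 6 was left out (adjusted p as high as 0.14). Hilpda, which inhibits the droplet lipase, and Plin3 rose by 0.72 ± 0.16 and 0.52 ± 0.11 (adjusted p = 0.013 and 0.011). Hilpda did not pass when control 39 was left out (adjusted p as high as 0.062). Lpl, lipoprotein lipase, was at 102, 103, 65.96 and 114 FPKM in control and at 22.3 to 60.1 (median 45.7) in Ctr shRNA and fell by 1.15 ± 0.26 (adjusted p = 0.012), and the fatty acid transporter Slc27a2 fell by 0.68 ± 0.14 (adjusted p = 0.0088). Cd36, the scavenger receptor for fatty acids, was level at -0.01. Of cholesterol synthesis genes, 0 of 22 rose and 7 fell (0 and 5 without Ctr shRNA 20, 1 lower without control 37, 2 lower without control 39, 3 lower without control 38 or Ctr shRNA 4). Cyp51, which demethylates lanosterol, was at 62.03, 59.9, 55.99 and 67.8 FPKM in control and at 17.5 to 47.98 (median 27.7) in Ctr shRNA and fell by 1.14 ± 0.27 (adjusted p = 0.017). Cyp51 did not pass when control 37 was left out (adjusted p as high as 0.052). Sqle, squalene epoxidase, did not pass (0.18, adjusted p = 0.34). The core of the sterol element, TCACCCCAC, was found in 1 of 17 promoters of this list, that of Hmgcs1, which did not pass (5.88%, against 0.614% of all symbols).

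Breakdown of amino acids was the metabolic list with the largest share of members lower. Of tyrosine and branched-chain amino acid breakdown genes, 0 of 21 rose and 10 fell (0 and 8 without Ctr shRNA 20, 6 lower without control 37, 38 or 39 or Ctr shRNA 6), or 47.6% beside 3.91% of all genes, with a median of -0.30. Hpd, the dioxygenase of tyrosine breakdown, was at 42.2, 34.9, 35.3 and 46.04 FPKM in control and at 3.85 to 20.6 (median 10.01) in Ctr shRNA. Hpd fell by 2.04 ± 0.35 on the log2 scale (SE, adjusted p = 0.0019), with Ctr shRNA 1 nearest to control. In the branched-chain path both the first step and later ones were lower, Bcat1 by 1.50 ± 0.32, Dbt of the dehydrogenase by 0.46 ± 0.10, Ivd of leucine breakdown by 0.72 ± 0.12 and Mccc2 by 0.62 ± 0.10, each change a fall with adjusted p of 0.0011 to 0.0099. In the kynurenine path of tryptophan, Kmo and Aadat fell by 0.72 ± 0.11 and 1.43 ± 0.26 (adjusted p = 0.0012 and 0.003). Aadat was at 132, 148, 119 and 149 FPKM in control and at 28.97 to 96.6 (median 48.3) in Ctr shRNA.

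Of arginine, glycine and creatine genes, 0 of 20 rose and 7 fell (0 and 5 without Ctr shRNA 20, 2 lower without control 37 or 38, 3 lower without control 39 or 41, 4 lower without Ctr shRNA 4 or 6). Ass1, with which the kidney makes arginine, was at 888, 1087, 1083 and 643 FPKM in control and at 402 to 657 (median 466) in Ctr shRNA. Ass1 fell by 0.91 ± 0.17 on the log2 scale (SE, adjusted p = 0.0044), although control 41 lay within the Ctr shRNA range. Gnmt, a glycine methyltransferase, fell by 0.94 ± 0.18 (adjusted p = 0.0055), and Cbs, which starts the conversion of homocysteine to cysteine, by 0.84 ± 0.20 (adjusted p = 0.017). Cbs did not pass when control 37 or 38 was left out (adjusted p as high as 0.062). Among amino acid transporters 0 of 19 rose and 4 fell (1 and 3 without Ctr shRNA 20, 2 lower without control 38). Slc3a1, the heavy subunit of the cystine transporter mutated in cystinuria, was at 193, 209, 197 and 197 FPKM in control and at 100.1 to 181 (median 127) in Ctr shRNA and fell by 0.61 ± 0.12 (adjusted p = 0.0055). Its light subunit Slc7a9 did not pass (-0.25, adjusted p = 0.2). The taurine transporter Slc6a6 fell by 0.72 ± 0.16 (adjusted p = 0.0098).

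Drug-handling genes moved both ways. Of conjugating phase II genes, 7 of 24 rose and 1 fell (8 and 1 without Ctr shRNA 20). Ugt1a10, a glucuronosyltransferase, was at 0.747, 0.367, 0.290 and 0.467 FPKM in control and at 4.45 to 9.29 (median 5.28) in Ctr shRNA. Ugt1a10 rose by 2.28 ± 0.33 on the log2 scale (SE, adjusted p = 0.00062), though the Ugt1a genes share exons and the split of reads among them is unknown. Mgst1, a microsomal glutathione transferase, was at 30.5, 27.8, 25.5 and 34.5 FPKM in control and at 47.7 to 68.7 (median 62.8) in Ctr shRNA and rose by 1.02 ± 0.13 (adjusted p = 0.0002). Gsta2 and Ugt2b37, of families with near-identical copies, rose by 1.22 ± 0.23 and 1.39 ± 0.21 (adjusted p = 0.004 and 0.00084). Of Cyp2 genes, 1 of 13 rose and 4 fell (1 and 4 without Ctr shRNA 20), with Cyp2d12 and Cyp2d9 at -2.62 and -1.56 and Cyp2d22 higher by 0.62 ± 0.15 (adjusted p = 0.021). Cyp2d22 did not pass when control 38, 39 or 41 was left out (adjusted p as high as 0.076). Of organic ion and drug transporters, 0 of 25 rose and 6 fell (0 and 5 without Ctr shRNA 20), and Slc22a26 fell by 1.44 ± 0.22 (adjusted p = 0.001).

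Among hormone systems, 1 of 9 renin-angiotensin genes rose and 2 fell, and 1 of 16 vitamin D and phosphate genes rose and 3 fell. The counts were the same without Ctr shRNA 20. The shares higher were 11.1% and 6.25%, beside 3.58% of all genes, and those lower 22.2% and 18.8%, beside 3.91%. The fold change was above 0 for 6 of the 9 and 2 of the 16, with medians of 0.025 and -0.377. With 1 library left out, 0 to 1 rose in each list, and 2 to 3 and 2 to 4 fell. Ace, angiotensin-converting enzyme, was at 67.0, 76.6, 71.7 and 63.8 FPKM in control and at 20.97 to 42.1 (median 29.6) in Ctr shRNA. Ace fell by 1.19 ± 0.16 on the log2 scale (SE, adjusted p = 0.00039), in each Ctr shRNA library. Agt, the precursor that angiotensin is cut from, rose by 0.91 ± 0.23 (adjusted p = 0.022), from 49.8, 37.4, 45.1 and 63.3 FPKM in control to 49.5 to 143 (median 92.97) in Ctr shRNA, with Ctr shRNA 20 lowest and inside the control range. Agt did not pass when control 37, 38 or 39 was left out (adjusted p as high as 0.089). Ren1, renin, ranged from 6.897 to 27.5 FPKM in control and from 7.53 to 39.98 in Ctr shRNA and did not pass (0.02). In vitamin D handling Cyp24a1, which breaks down the active hormone, was at -2.08, and Cyp27b1, which makes it, did not pass (0.79, adjusted p = 0.33). The phosphate transporter Slc34a3 fell by 0.97 ± 0.20 (adjusted p = 0.0065), from 17.6, 16.9, 15.2 and 9.63 FPKM in control to 5.53 to 8.42 (median 6.98) in Ctr shRNA. Hsd11b1, which activates glucocorticoid, and Hsd11b2, which inactivates it in principal cells, fell by 0.91 ± 0.19 and 0.62 ± 0.14 (adjusted p = 0.0071 and 0.015), whereas the glucocorticoid targets Tsc22d3 and Fkbp5 did not pass (0.31 and -0.11). Hsd11b2 did not pass when control 38 or 39 was left out (adjusted p as high as 0.054). Of 15 circadian clock genes 0 passed by limma with or without Ctr shRNA 20 (3 higher and 3 lower at an unadjusted p under 0.05, 0 by voom), and Dbp, an output gene with a strong daily rhythm, was at -0.77 (adjusted p = 0.23). Gcgr, the glucagon receptor, was lower in each Ctr shRNA library, at 5.89 to 11.8 (median 10.4) FPKM against 18.4 to 23.8 in control, with a log2 fold change of -1.04 ± 0.14 (adjusted p = 0.00044).

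**Figure D5:**
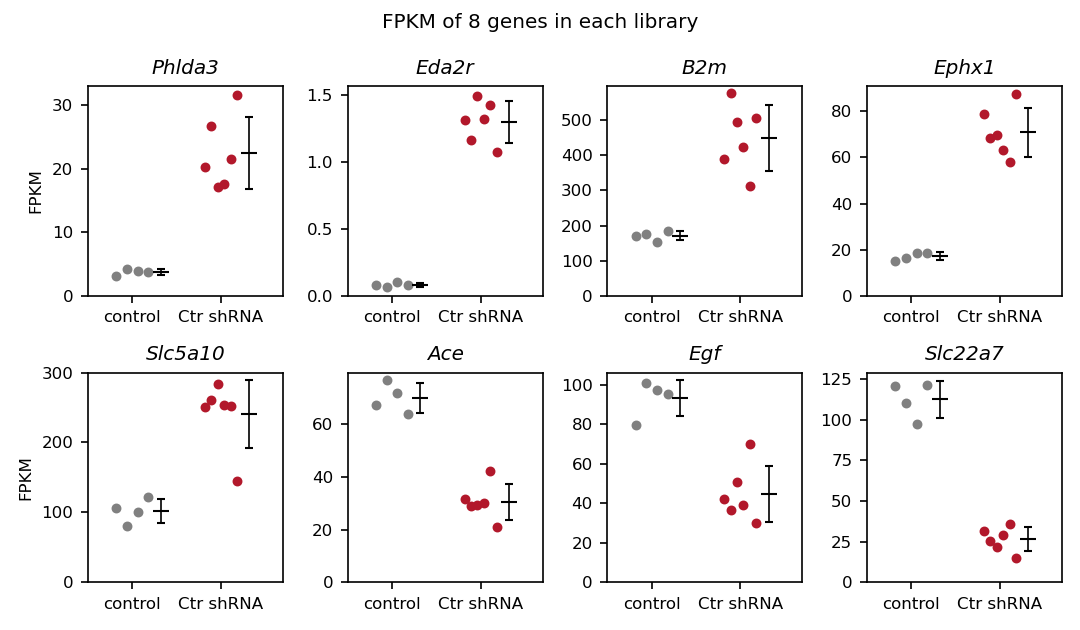
FPKM (y axes, linear, from 0) of 8 genes in each library, grey for control (n = 4) and red for Ctr shRNA (n = 6), with the mean and SD at the right of each group. In each panel the groups do not overlap, and Ctr shRNA 20 is the rightmost red point.

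On GRCm38, as the deposited table gives them, these genes lie at chromosome 1, 135766119 to 135769136 (Phlda3, ENSMUSG00000041801), chromosome X, 97333840 to 97377216 (Eda2r, ENSMUSG00000034457), chromosome 2, 122147686 to 122153083 (B2m, ENSMUSG00000060802) and chromosome 1, 180976210 to 181020904 (Ephx1, ENSMUSG00000038776). Slc5a10 (ENSMUSG00000042371) lies at chromosome 11, 61672781 to 61720826, Ace (ENSMUSG00000020681) at chromosome 11, 105967945 to 105989964, Egf (ENSMUSG00000028017) at chromosome 3, 129677565 to 129755316 and Slc22a7 (ENSMUSG00000067144) at chromosome 17, 46432183 to 46438457. The table gives 1 value per gene, so no exon, intron or untranslated region is singled out.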

How the data were processed

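Whole-kidney RNA of mice was measured in 17 libraries, extracted with Trizol and made into libraries with a SMARTER mRNA kit, as the labels' protocols say. The table the authors deposited holds 1 FPKM value per gene and library, with gene length, gene identifier, biotype and coordinates, per the file headers. The build is GRCm38 (mm10), per the submitters' processing notes, and the aligner, counter, annotation release and strand setting were not given in the sources used here. Reads of near-identical genes (Cyp4a, Cyp2d, Ugt1a, Gsta, the H2 genes) and of antisense or overlapping genes may therefore be split or shared in an unknown way. The table holds 42794 complete gene lines, and 1 incomplete line was left out. Multiplying the deposited FPKM by gene length gave values that were whole multiples of a library step for 100% of low values (up to 200 steps, tolerance 0.05 of a step), and this gave the recovered reads per library, of 14117414 to 16898206 in the 10 libraries compared.

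Libraries were grouped by their titles and genotypes. Genes with an FPKM of at least 1 in at least 4 of the 17 libraries were kept. Values were taken as log2(FPKM + 1) and fitted with limma 3.58.1 in R 4.3.3 (limma-trend, a mean for each of the 3 groups, empirical Bayes), with Benjamini-Hochberg adjustment over all 13279 genes and a threshold of 0.05. The ± values beside log2 fold changes are standard errors from that fit. The fitting script was tested on simulated data. Replicates of a group differed by more than counting error, with a chi-square per degree of freedom of 7.14 to 16.7 between control libraries and 17.1 to 76.1 between Ctr shRNA libraries.

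The comparison, the 73 gene lists and the rule for named genes were chosen with earlier results of these data known. Named genes are those with the 12 largest changes in each direction that also passed without Ctr shRNA 20, the first 2 of every list, up to 6 passing members of every list with the smallest p, and markers near 0. The ranking for the 12 left out predicted genes, clones, pseudogenes and antigen receptor segments. It also left out genes with a mean FPKM below 1 in the higher group. A list is described by counts and its median, with no test. The lists overlap, with 57 genes in more than 1 list, so their counts are not independent. The 3 S3 markers that fell, for example, are also in the lists of sex-biased genes and of transporters. Some members of the lists are not reported here by name. Promoter windows come from RefSeq (GRCm38.p6). Alternatives were a pseudocount of 0.1, no filter, a mean FPKM of at least 5, only the 10 libraries, both rescalings (by total and by median ratio), sample weights, voom on the recovered reads, and each library left out in turn.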

Additional observations from a re-analysis of the deposited data

Results flagged for a closer look

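In 21 of 356 groups of values, 1 library lay far from the others of its group, by the ratio of its gap to the group's range. Chance alone gives about 1 in 20 such groups. Ctr shRNA 20 accounted for 9 of them, control 39 and control 41 for 4 each, Ctr shRNA 4 for 2, and control 37 and Ctr shRNA 6 for 1 each. No cause was tested.

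Ctr shRNA 20 stood apart in fat cell, urothelial and principal cell markers. Adipoq was at 45.3 FPKM in it and at most at 2.38 in the other 5 Ctr shRNA libraries, and Upk3a at 56.8 FPKM against at most 1.38. The mean log2(FPKM + 1) of fat cell genes was 6.496 in it against 1.064 to 2.561, and that of urothelium genes 4.696 against 0.415 to 1.489. Aqp2 was at 850 FPKM against 99.0 to 178. The complement gene C4b was at 8.90 FPKM against 2.57 to 3.79. Proximal tubule and fatty acid genes were lower in it, with Slc5a10 at 146 FPKM against 251 to 284, Decr1 at 72.0 FPKM against 90.3 to 102, and Acadm at 161 FPKM against 236 to 290. Control 39 had a smaller excess of the same kind. Its fat cell mean was 2.700 against 1.350 to 1.439 in the other control libraries, Adipoq was at 1.00 FPKM where the others are listed at 0, and Upk3a was at 1.75 FPKM against 0.0585 to 0.228.

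The remaining values were those of single genes. In control 39 Irf7 was at 2.62 FPKM against 2.87 to 2.90. In control 41 Slc5a2 was at 50.3 FPKM against 91.4 to 98.9, Psme1 at 22.5 against 19 to 19.4, C4b at 1.11 against 1.56 to 1.62 and Atf4 at 46.5 against 34.1 to 35.9. In control 37 Scnn1b was at 21.4 FPKM against 19.6 to 19.8. Ctr shRNA 4 held Ccl2 at 4.55 FPKM against 0.659 to 1.51 and Slc20a1 at 36.7 against 13.4 to 18.9. In Ctr shRNA 6 Cyp2d12 was at 4.01 FPKM against 6.29 to 8.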

How the results depend on the processing

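Among the alternatives that kept all 10 libraries, 2 moved the counts of genes by more than 1.5 times. With no filter on low values 265 genes were higher and 332 lower, and with sample weights 1061 were higher and 1026 lower; the cause was not tested. With voom on the recovered reads, in which 100% of low values came out whole, 535 were higher and 524 lower, and under the other 5 the counts of higher genes were 347 to 524 and those of lower genes 388 to 533. Leaving out 1 library at a time gave 215 to 589 higher and 236 to 676 lower genes, and the lowest counts came from fits without control 37, 38 or 39, which leave 3 control libraries. Of 170 genes checked in this way, 124 passed, and 73 of these passed in all 18 alternatives. The fit with a mean FPKM of at least 5 held only 135 of the 170, all with the same call. Genes absent from that fit were not counted among the 73. No checked gene that passed changed its direction. No paired analysis was possible because the groups share no replicate number. For genes near 1 FPKM the pseudocount and the read depth limit the size of a change that could be seen, and with 4 and 6 libraries a gene with a wide spread, such as Havcr1 or Lcn2, did not pass at fold changes above 1.5 on the log2 scale.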

Other observations

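Of the 3 neutrophil and 5 red blood cell markers tested, 0 passed limma's test, with 2 neutrophil markers lower at an unadjusted p under 0.05 and 0 of either kind called by voom. S100a8 and S100a9, abundant in neutrophils, were at 2.95, 3.04, 1.42 and 8.34 FPKM and at 3.92, 7.96, 1.64 and 14.8 FPKM in control and at 0.166 to 2.37 (median 0.906) and 0.442 to 6.38 (median 1.55) in Ctr shRNA. Both had log2 fold changes below 0, of -1.12 and -1.15, and neither passed (adjusted p = 0.089 and 0.24). The haemoglobin genes Hbb-bs and Hba-a1, which mark residual blood, had log2 fold changes of -0.20 and -0.26, smaller than their standard errors. Cd79a and Ms4a1 of B cells stayed at or below 0.897 FPKM in all 10 libraries and were too low to be tested.

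Among acute phase and heat shock genes 22.2% and 10% rose, beside 3.58% of all genes. The fold change was above 0 for 9 of 9 and 8 of 10 (7 and 8 without Ctr shRNA 20), with medians of 0.70 and 0.12. Of acute phase and fibrinogen genes, 2 of 9 rose and 0 fell (2 and 0 without Ctr shRNA 20, 0 higher without control 38 or 41, 1 higher without control 37 or 39 or Ctr shRNA 1, 4 or 8). Fgg, a fibrinogen chain, was at 4.08, 2.57, 1.92 and 3.48 FPKM in control and at 6.36 to 51.8 (median 14.97) in Ctr shRNA and rose by 2.10 ± 0.58 (adjusted p = 0.036). Fgg did not pass when control 37, 38, 39 or 41 or Ctr shRNA 1, 4 or 8 was left out (adjusted p as high as 0.11). Lrg1, a secreted glycoprotein, rose by 0.80 ± 0.20 (adjusted p = 0.02). Lrg1 did not pass when control 38 or 41 was left out (adjusted p as high as 0.075). Of heat shock genes, 1 of 10 rose and 0 fell (1 and 0 without Ctr shRNA 20), and the 1 that rose was Hspb1, a small chaperone of the cytoskeleton, at 11.4, 11.3, 12.01 and 14.6 FPKM in control and at 24.8 to 121 (median 31.3) in Ctr shRNA. Hspb1 rose by 1.67 ± 0.42 on the log2 scale (SE, adjusted p = 0.022), whereas Hspa1a, the classical heat-inducible chaperone, was at -0.12. Hspb1 did not pass when control 37, 38 or 39 was left out (adjusted p as high as 0.066).

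Several genes with large changes lie outside the groups described. Azgp1, a secreted zinc-binding glycoprotein, was at 76.5, 88.3, 77.7 and 91.1 FPKM in control and at 12.8 to 40.3 (median 18.4) in Ctr shRNA and fell by 1.93 ± 0.28 (adjusted p = 0.00065). Rnf24, which encodes a ring finger protein, went from 12.6, 9.91, 11.3 and 12.9 FPKM in control to 1.81 to 4.12 (median 3.27) in Ctr shRNA and fell by 1.69 ± 0.30 (adjusted p = 0.0031). Aqp8, a water channel with little expression in control kidney, was at 0.402, 0.283, 0.0416 and 0.158 FPKM in control and at 0.604 to 2.46 (median 1.24) in Ctr shRNA and rose by 0.91 ± 0.20 (adjusted p = 0.01), and Aqp3 of the basolateral side of principal cells fell by 0.52 ± 0.14 (adjusted p = 0.029). Aqp3 did not pass when control 37 or 39 or Ctr shRNA 4 or 6 was left out (adjusted p as high as 0.12). Slc20a1, a phosphate transporter, rose by 1.01 ± 0.29 (adjusted p = 0.045). Slc20a1 did not pass when control 37, 38 or 39 or Ctr shRNA 1, 4, 6 or 19 was left out (adjusted p as high as 0.18). For iron, the storage gene Fth1 and the transferrin receptor Tfrc did not pass (0.21 and 0.55, adjusted p = 0.4 and 0.11).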
